A study of Mus musculus with 8 samples.

Results

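The costimulatory and checkpoint ligands of T cells were examined as 6 genes in mouse bone marrow-derived macrophages (BMDMs): Cd80 and Cd86, the ligands of CD28 and CTLA-4; Icosl, the ligand of ICOS; Cd274 and Pdcd1lg2, which encode the PD-1 ligands PD-L1 and PD-L2; and Cd40, which is itself a receptor, for CD40 ligand on helper T cells. They were taken by symbol, and all 6 had a row among the 21080 genes measured. RNA-seq covered 8 samples, 2 in each of 4 groups: WT and Nudt21-cKO BMDMs at 0 h, and both genotypes 4 h after LPS (50 ng/ml) that followed IFNγ (50 ng/ml) overnight. The cKO cells carried Nudt21 fl/fl alleles, with loxP sites around exons 2 to 3, and LysM-Cre, which recombines in the myeloid lineage. WT cells came from sex-matched LysM-Cre littermates, so Cre was present in every group. All mice were on C57BL/6, the age of the marrow donors is not given in the sources used here, and each sample pooled BMDMs of 2 mice grown with M-CSF.

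A macrophage that meets a microbe presents antigen to T cells, and the ligands studied here set what the T cell does next. CD80 and CD86 give the second signal through CD28 but bind the inhibitory receptor CTLA-4 more tightly, ICOS ligand sustains helper T cells, and PD-L1 and PD-L2 restrain T cells through PD-1. CD40 receives a signal from the T cell and passes it through TRAF adaptors to NF-κB, which licenses the macrophage. IFNγ and LPS are classical inducers of several of these genes, and NUDT21 is a subunit of the cleavage factor that binds UGUA in pre-mRNA and helps to choose where a transcript ends.

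Values are read coverage per base of each gene, so levels can be set against each other between genes. Summed over all genes, coverage at 0 h was 15751245 and 15827594 in WT against 16650103 and 17744522 in cKO. At 4 h it was 15552049 and 14950347 in WT against 17360205 and 17954882 in cKO. Each cKO pool thus had more than each WT pool of its time, and values were not scaled for this unless stated. The labels give more than 250000000 reads per sample. Nudt21 coverage was 718 and 641 in WT against 158 and 172 in cKO at 0 h, and 547 and 575 against 142 and 115 at 4 h, 4.10-fold and 4.38-fold lower in cKO. Summed coverage of 8 macrophage markers ranged from 120500 to 132900 at 0 h and from 64070 to 75280 at 4 h, and every one of them had a mean of at least 1 in every group. By genotype, the log2 fold change of Cd68 was 0.69 at 0 h and 1.07 at 4 h, both called, while Adgre1 (-0.66) and Fcgr1 (-0.89) were called lower in cKO at 0 h and Lyz2 (0.82) higher at 4 h. The call of Cd68 at 0 h was lost after scaling to the same total (0.57). That of Adgre1 was lost without WT replicate 2, cKO replicate 3 or cKO replicate 4 (-0.68 to -0.52) and with values not logged (-0.67). That of Lyz2 was lost without any 1 of the 4 samples (0.62 to 1.01) and after median-centring (0.48). It was also lost after scaling to the same total (0.61), after quantile normalization (0.53) and with values not logged (0.82). The median gene differed between the groups on the deposited scale. It was 0.31 (log2) higher in cKO at 4 h, 0.10 higher in cKO at 0 h, and with stimulation it was 1.24 lower in WT and 1.03 lower in cKO. After scaling to the same total, its genotype difference was 0.098 at 4 h and -0.021 at 0 h. Fold changes below are log2(coverage + 0.1) differences from limma with their standard errors. A genotype difference was called at a fold above 1.5 with an unadjusted p under 0.05, and the Benjamini-Hochberg adjusted p is given beside it. The sources do not say whether the pools were cultured separately from each other in time, so p-values measure only the spread between these pools, which may be technical in part. In bulk RNA, fewer cells of a type and less RNA per cell cannot be told apart.

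The 3'UTRs of the 6 genes were read from GENCODE M21 transcripts on GRCm38, because the gene deleted here acts on transcript ends. Their lengths were 532 bases for Cd80, 669 for Pdcd1lg2, 1493 for Cd86, 1622 for Icosl, 2035 for Cd40 and 2683 for Cd274, against a median of 904 over 15963 genes. These lengths are of 1 chosen transcript per gene. Cd40, Cd80 and Pdcd1lg2 have further coding transcripts with other 3'UTR lengths, among them one of Cd80 with a 3'UTR longer than that of Pdcd1lg2. The model of Cd40 runs past the end of its RefSeq gene, and those of Cd80, Cd86 and Pdcd1lg2 stop before it, so that the windows of Cd80 and Cd86 lie at the end of the chosen transcript and not of the RefSeq gene. Cd274, with the longest, held 15 TGTA (the DNA spelling of UGUA) and stood at the 85.1 percentile of length. Cd80, with the shortest of the chosen ones, held 1. Per kilobase the 6 ranged from 1.88 in Cd80 to 6.03 in Cd86, against a median of 5.06 over the 14964 genes with a 3'UTR of at least 100 bases. The windows below show, for the 4 genes that differed by genotype at a readily measured level, the TGTA nearest to the annotated end, in capitals, followed by the window of the last AATAAA, the canonical polyadenylation signal, in capitals. Positions are on GRCm38 and each sequence is written 5′ to 3′ on the strand of the gene.
Cd274 TGTA, plus strand, chr19:29388045-29388074: tcagattgtcaaTGTAttgcattaatttaa
Cd274 AATAAA, plus strand, chr19:29388061-29388090: ttgcattaatttAATAAAtatttttattta
Cd80 TGTA, plus strand, chr16:38486870-38486899: ctatggttgggaTGTAaaaacgataataat
Cd80 AATAAA, plus strand, chr16:38486898-38486927: atataaatattaAATAAAaagagagtattg
Cd86 TGTA, minus strand, chr16:36603895-36603924: accaacatgttcTGTAcagagtggatttca
Cd86 AATAAA, minus strand, chr16:36603878-36603907: agagtggatttcAATAAAgttttcttgaat
Icosl TGTA, plus strand, chr10:78079452-78079481: ctttatctgggtTGTAgatggggcatagtg
Icosl AATAAA, plus strand, chr10:78079492-78079521: acctaacaagggAATAAAtgtaagatgtgc
For Icosl the window shows the last TGTA before the signal, since a later one directly follows it. In these 4 genes a TGTA therefore lies in the last 62 bases of the chosen GENCODE transcript, and AATAAA in the last 27. AATAAA was found in 78.2% of the 3'UTRs of all genes, and the 3'UTR of Pdcd1lg2 held none. These matches describe the annotation, and use of the sites was not measured here.

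The CD28 ligands were the first pair compared. Cd80 (chr16:38457430-38495958, plus strand, RefSeq on GRCm38) had a coverage of 203 and 193 in WT against 378 and 401 in cKO at 0 h. Each cKO pool exceeded each WT pool, and the level was 1.97-fold higher in cKO (log2 fold change 0.98, SE 0.11, unadjusted p = 0.00245, adjusted p = 0.0893 in limma). At 4 h Cd80 stood at 1247 and 1431 in WT against 1568 and 1437 in cKO. The groups did not overlap, but they nearly touched, and the log2 difference of 0.17 (SE 0.13, 95% interval -0.26 to 0.59, adjusted p = 0.442) did not pass the test. Its sign turned when the samples were centred on their medians (-0.17), scaled to the same total (-0.044) or quantile normalized (-0.092).

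Cd86 (chr16:36568956-36666158, minus strand) was lower in cKO at 4 h. At 0 h its coverage was 255 and 260 in WT against 182 and 249 in cKO, and cKO replicate 4 came close to WT. The log2 difference of -0.28 (SE 0.21, 95% interval -0.93 to 0.37, adjusted p = 0.509) did not pass. At 4 h coverage was 8329 and 8563 in WT against 5711 and 5529 in cKO. Every cKO sample was below every WT sample by a margin far wider than either group's spread. The level was 1.5-fold lower in cKO (log2 fold change -0.59, SE 0.10, unadjusted p = 0.00881, adjusted p = 0.0708), which lies just past the fold threshold. The call was lost without WT replicate 2, without cKO replicate 3 or without cKO replicate 4, and the fold change then stayed between -0.61 and -0.56. The long RefSeq model of Cd86 overlaps Gm49662, whose mean coverage at 4 h was 43.0 in WT and 84.8 in cKO, small beside that of Cd86.

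Within a sample, the ratio of Cd80 to Cd86 does not depend on that sample's depth, and 0.1 was added to both values of each ratio. At 0 h it was 0.795 and 0.741 in WT against 2.08 and 1.61 in cKO, so that Cd86 was the more abundant of the pair in WT and Cd80 in cKO. At 4 h it was 0.150 and 0.167 in WT against 0.275 and 0.260 in cKO, with Cd86 the more abundant in every sample. The ratio was thus 2.38-fold higher in cKO at 0 h and 1.69-fold higher at 4 h, and the groups did not overlap at either time. The exact two-sided permutation test gave p = 0.33 at both times, the smallest value that 2 against 2 samples allow.

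**Figure D1:**
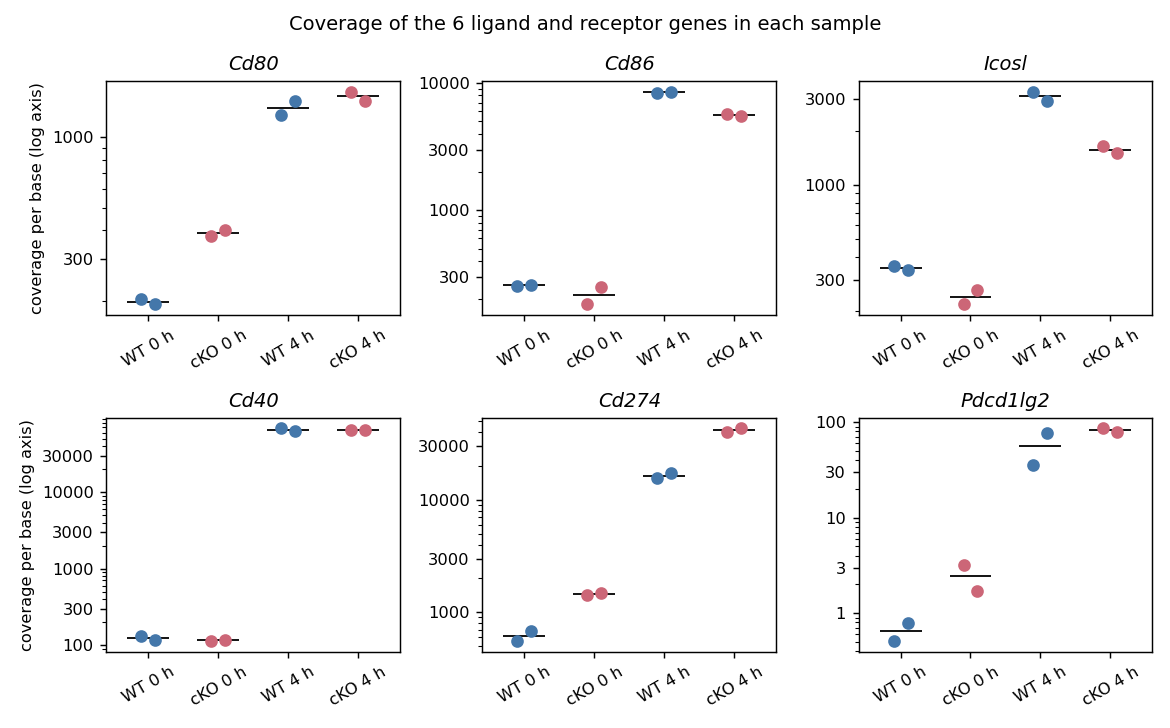
Coverage per base (log axes, each panel with its own range) of the 6 genes in each of the 8 samples, WT in blue and cKO in red; the black line is the mean of the 2 samples. All 6 genes were higher at 4 h, Cd274 was higher in cKO before and after stimulation, and Cd86 and Icosl were lower in cKO at 4 h.

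Icosl (chr10:78069368-78079525, plus strand) was lower in cKO than in WT after stimulation, as Cd86 was. At 0 h coverage was 357 and 337 in WT against 218 and 262 in cKO. Both cKO samples were below both WT samples, by 1.45-fold, which missed the fold threshold (log2 fold change -0.54, SE 0.15, unadjusted p = 0.0347, adjusted p = 0.204). After centring on the median (-0.63), scaling to the same total (-0.66) or quantile normalization (-0.64), and without cKO replicate 4 (-0.67), it was called lower. At 4 h Icosl stood at 3291 and 2937 in WT against 1644 and 1497 in cKO. The level was 1.98-fold lower in cKO (log2 fold change -0.99, SE 0.13, unadjusted p = 0.00423, adjusted p = 0.059), and the groups were far apart. Icosl was called lower at 4 h under all 13 alternatives, with fold changes from -1.32 to -0.90.

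Cd40 (chr2:165055614-165071654, plus strand) did not pass the genotype test at either time, and it had the largest response to stimulation of the 6 in both genotypes. Coverage at 0 h was 132 and 118 in WT against 113 and 118 in cKO. At 4 h it was 68092 and 62213 in WT against 64842 and 65369 in cKO. The cKO samples lay between the WT samples at 4 h, and the groups overlapped at 0 h as well. The 95% interval of the log2 difference ran from -0.34 to 0.34 at 4 h and from -0.49 to 0.27 at 0 h, and differences inside these bounds cannot be told from 0 with 2 pools per group. Relative to the median gene, which was higher in cKO at 4 h, Cd40 was 0.31 lower (log2).

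Cd274 (chr19:29362107-29388095, plus strand), the PD-L1 gene, was higher in cKO at both times. At 0 h coverage was 553 and 677 in WT against 1419 and 1492 in cKO. Each cKO sample had more than the higher WT sample, and the level was 2.38-fold higher (log2 fold change 1.25, SE 0.16, unadjusted p = 0.00355, adjusted p = 0.0999). At 4 h coverage was 15562 and 17373 in WT against 40605 and 43355 in cKO. The difference of 2.55-fold (log2 fold change 1.35, SE 0.12, unadjusted p = 0.00139, adjusted p = 0.0478) passed with adjustment, and no other genotype difference of the 6 genes did in this fit. With all 8 samples in 1 fit and with an intensity trend of the variance, Icosl at 4 h (adjusted p = 0.0125 and 0.00193) and Cd80 (0.0197 and 0.00435) and Cd274 (0.0166 and 0.00199) at 0 h passed as well, as did Cd86 at 4 h with the trend (0.00328) and Icosl at 4 h with a pseudocount of 1 (0.0468). Cd274 at 4 h did not pass with adjustment without the filter (0.0673), after median-centring (0.0696), scaling to the same total (0.0789) or quantile normalization (0.0591), with values not logged (0.0895) or without any 1 of the 4 samples. Cd274 stayed called higher under all 13 alternatives at 4 h, with fold changes from 1.01 to 1.43, while its adjusted p ranged from 0.000891 to 0.324. The gene overlaps Plgrkt on the opposite strand, whose coverage was between 953 and 1828 in the 8 samples, and it is not stated that reads were counted by strand. At 4 h that is small beside Cd274, and at 0 h it is more than the coverage of Cd274 in both genotypes.

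Pdcd1lg2 (chr19:29410919-29472927, plus strand), the neighbouring PD-L2 gene, was rare in these cells. Coverage at 0 h was 0.510 and 0.796 in WT against 3.23 and 1.70 in cKO, less than 1 read per base in WT. The groups did not overlap and the gene was called higher in cKO (log2 fold change 1.73, SE 0.43, unadjusted p = 0.0262, adjusted p = 0.186), but without WT replicate 1, WT replicate 2 or cKO replicate 3 the call was lost, with fold changes of 1.45, 2.01 and 1.28. With a pseudocount of 1 the fold change was 1.04. At 4 h coverage was 35.2 and 76.3 in WT against 86.2 and 79.1 in cKO. WT replicate 1 was less than the others, and WT replicate 2 was close to the cKO samples. The difference of 0.67 (SE 0.46, 95% interval -0.78 to 2.12, adjusted p = 0.392) did not pass. It was called higher at 1.23 without WT replicate 2 and was 0.11 without WT replicate 1. Pdcd1lg2 overlaps the antisense gene A930007I19Rik, with a mean coverage of 45.8 in WT and 62.7 in cKO at 0 h and of 27.1 and 54.5 at 4 h, levels near or above its own.

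Counted together, 1 of the 6 genes was called higher in cKO at 4 h, Cd274, and 2 lower, Cd86 and Icosl. Of the 14950 genes tested at 4 h, 20.8% were called higher and 4.17% lower, and 3.86% passed with adjustment. At 0 h 3 were called higher, Cd80, Cd274 and Pdcd1lg2, and none lower, though Icosl had an unadjusted p under 0.05 in limma. Of 16251 genes tested then, 8.99% were called higher and 5.61% lower, and 1.03% passed with adjustment. The split of calls over all genes depended on scaling at 4 h. On the deposited scale 3112 were higher and 624 lower. After scaling to the same total the numbers were 1941 and 1013, and after median-centring 1552 and 1480. The same 3 members were called at 4 h under each of these. The median log2 difference of the 6 was 0.08 at 4 h and 0.43 at 0 h, against 0.31 and 0.10 over all genes. At 4 h Icosl stood at the 6.41 percentile of all fold changes, Cd86 at the 10.6, Cd40 at the 29.3, Cd80 at the 40.5, Pdcd1lg2 at the 71.6 and Cd274 at the 88.2. Of the genes called at 4 h, Cd86 and Icosl thus lay below the median gene and Cd274 above it. Cd80 and Cd40 lay below it and Pdcd1lg2 above it, but none of these was called. Without WT replicate 1, Pdcd1lg2 stood at -0.10 (log2) from the median gene. At 0 h Cd80 stood above the median gene, at the 89.2 percentile.

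**Figure D2:**
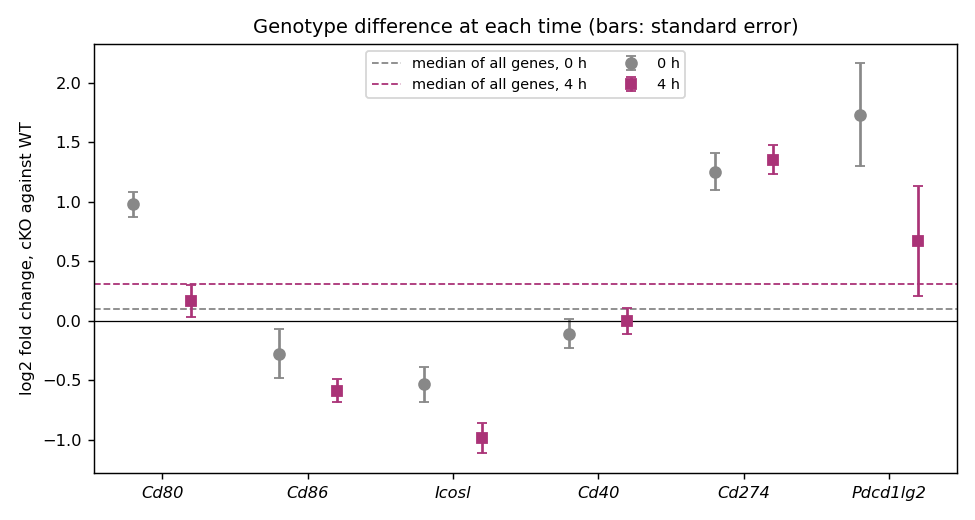
Log2 fold change of cKO against WT for each gene at 0 h (grey circles) and 4 h (purple squares), with limma standard errors; dashed lines mark the median of all genes, 0.10 at 0 h and 0.31 at 4 h. Cd274 was higher by 1.25 at 0 h and 1.35 at 4 h, and Cd80 by 0.98 at 0 h.

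**Figure D3:**
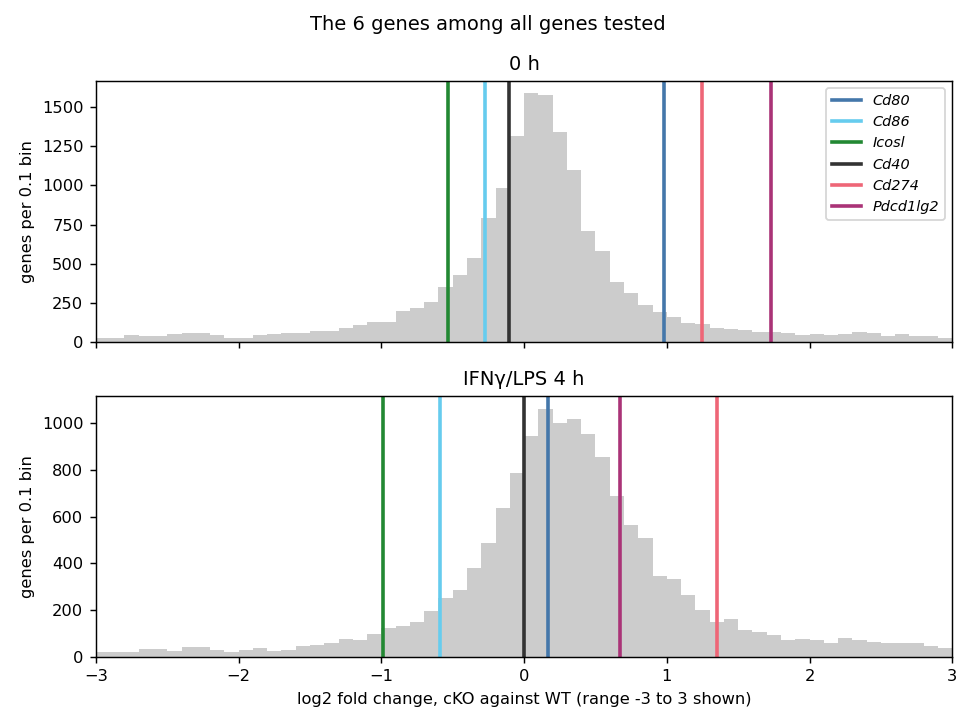
Number of genes per bin of log2 fold change, cKO against WT, at 0 h (top) and 4 h (bottom), with the 6 genes as coloured lines. At 4 h Icosl and Cd86 sit in the lower flank and Cd274 in the upper flank.

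All 6 genes rose with IFNγ/LPS in both genotypes. In WT, Cd40 rose 522-fold (log2 9.03, SE 0.11), Pdcd1lg2 70.2-fold (log2 6.13, SE 0.49), Cd86 32.8-fold (log2 5.03, SE 0.17), Cd274 26.9-fold (log2 4.75, SE 0.14), Icosl 8.96-fold (log2 3.16, SE 0.14) and Cd80 6.75-fold (log2 2.76, SE 0.12). In cKO the rises were 563-fold for Cd40, 33.7-fold for Pdcd1lg2, 28.8-fold for Cd274, 26.4-fold for Cd86, 6.55-fold for Icosl and 3.85-fold for Cd80. The size of these rises depended on the processing. With a pseudocount of 1 the log2 rise of Pdcd1lg2 was 5.01 in WT and 4.63 in cKO, below that of Cd86 (5.03 and 4.72), and with quantile normalization it was 8.34 and 6.72. Median-centring moved the rise of Cd40 to 10.50 in WT and 10.34 in cKO. All 6 passed with adjusted p between 5.04e-06 and 0.000543, and no sample at 4 h overlapped one at 0 h. In WT 11.7% of 16284 genes were called higher and 54.7% lower by the same test, and in cKO 13.2% and 50.4%. Cd40 stood at the 99.6 percentile of all stimulation fold changes in WT, and Cd80, the weakest of the 6, at the 94.2. The median of the 6 was 4.89 (log2) in WT and 4.79 in cKO, while the median gene was 1.24 and 1.03 lower.

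An interaction term over the 8 samples tested whether genotype mattered by a different amount at each time, and 0 of the 6 passed with adjustment in limma and 1 had an unadjusted p under 0.05, against 2.28% of all genes called higher and 0.761% lower with adjustment. Cd80 came nearest. Its rise was 1.75-fold smaller in cKO (log2 -0.81, SE 0.16, 95% interval -1.23 to -0.39, unadjusted p = 0.00412, adjusted p = 0.0746), and it passed after median-centring (-1.08, adjusted p = 0.0264), after quantile normalization (-1.08, adjusted p = 0.0329) and with an intensity trend of the variance (-0.81, adjusted p = 0.0192). Over all its alternatives the adjusted p of Cd80 ran from 0.0192 to 0.221. Icosl (-0.45, SE 0.19, adjusted p = 0.262), Cd86 (-0.31, SE 0.24, adjusted p = 0.501) and Pdcd1lg2 (-1.06, SE 0.69, adjusted p = 0.436) had intervals that included 0, and that of Pdcd1lg2 was -0.38 with a pseudocount of 1. For Cd274 the difference was 0.10 (95% interval -0.40 to 0.60), and its fold rise, 26.9 in WT and 28.8 in cKO, started from a higher level in cKO.

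The order of the 6 genes changed with stimulation. In WT at 0 h it was Cd274, Icosl, Cd86, Cd80, Cd40 and Pdcd1lg2, and no neighbours overlapped between samples. In cKO at 0 h Cd80 took the second place, 3.74-fold below Cd274, and Icosl and Cd86 overlapped. At 4 h the order was Cd40, Cd274, Cd86, Icosl, Cd80 and Pdcd1lg2 in both genotypes, with Icosl and Cd80 overlapping in cKO only. Mean Cd40 was 3.96-fold above mean Cd274 in WT and 1.55-fold above it in cKO. Of the summed coverage of the 6 genes at 4 h, Cd274 made up 16.1% and 18.8% in WT against 35.5% and 37.0% in cKO. Cd40 made up 70.5% and 67.2% in WT against 56.7% and 55.7% in cKO. At 0 h the share of Cd274 was 36.8% and 42.7% in WT against 61.4% and 59.1% in cKO, and each cKO pool had a lower share of Cd86 and of Icosl than each WT pool.

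**Figure D4:**
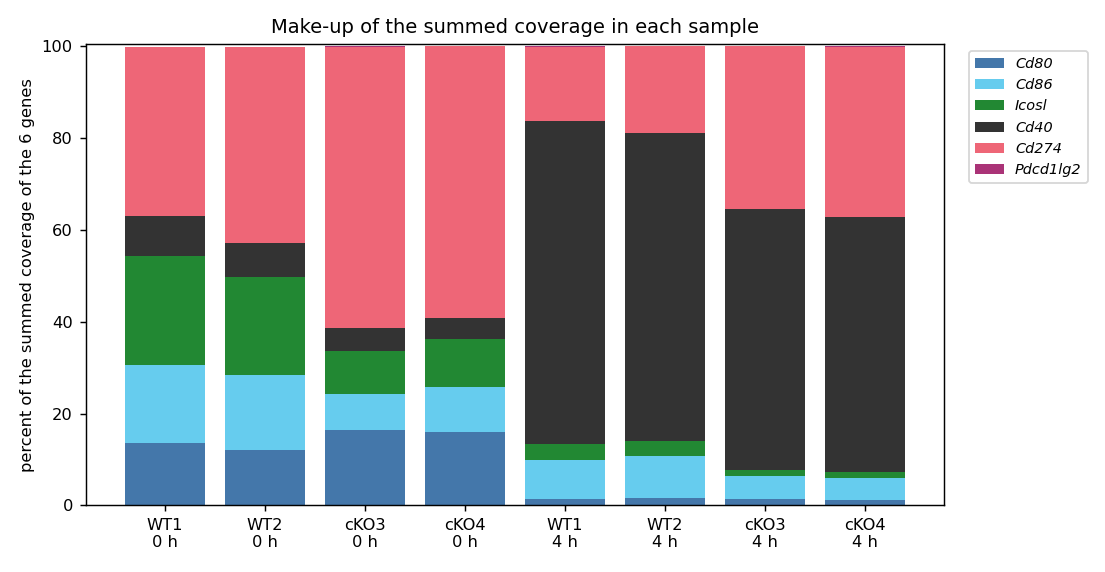
Percent of the summed coverage of the 6 genes taken by each, one bar per sample. Cd274 took 16.1% to 18.8% in WT and 35.5% to 37.0% in cKO at 4 h, and Pdcd1lg2 is too small to be seen.

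Ratios between the PD-L1 gene and the CD28 ligands were computed after the values of the single genes had been seen, and are given as a description. Cd274 to Cd86 was 2.16 and 2.60 in WT against 7.81 and 5.98 in cKO at 0 h. At 4 h it was 1.87 and 2.03 in WT against 7.11 and 7.84 in cKO. The genotypes did not overlap, and the ratio was 2.88-fold higher in cKO at 0 h and 3.83-fold higher at 4 h. Cd274 to Cd80 was 2.72 and 3.52 in WT against 3.75 and 3.72 in cKO at 0 h, and 12.5 and 12.1 in WT against 25.9 and 30.2 in cKO at 4 h. Cd274 to Pdcd1lg2, again with 0.1 added to both values, which lowers it where Pdcd1lg2 is near 0, ranged from 228 to 906 over the 8 samples. It was 1.60-fold higher in cKO at 4 h and 1.39-fold lower at 0 h, with exact permutation p = 0.33 and p = 0.667, and the sign at 0 h turned with a pseudocount of 1. With 1 sample left out, the ratio at 4 h was from 1.15-fold higher, without WT replicate 2, to 2.23-fold higher, without WT replicate 1. At 0 h the log2 difference of the ratio ran from -0.96 without cKO replicate 4 to 0.00096 without cKO replicate 3.

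**Figure D5:**
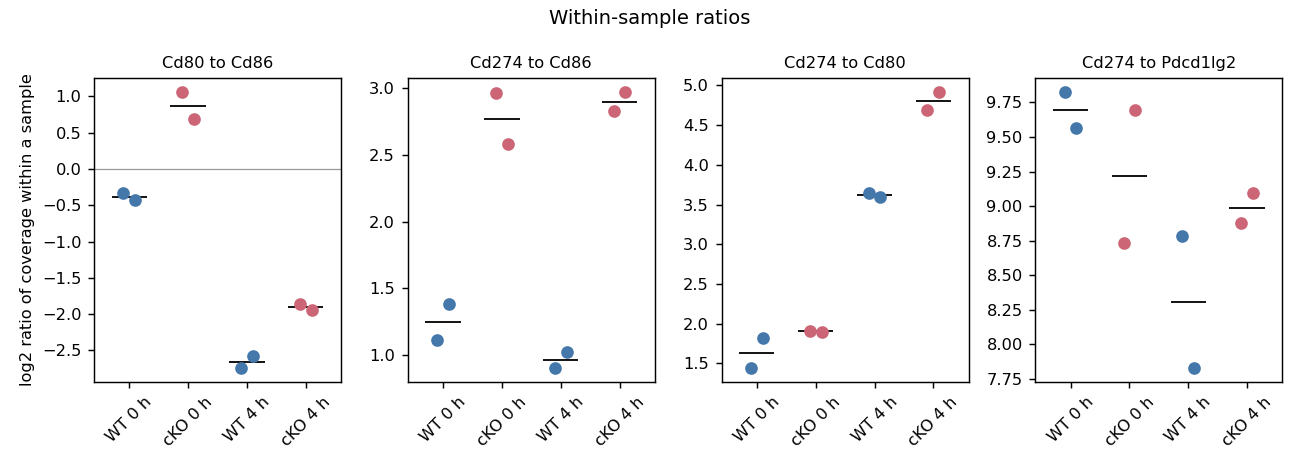
Log2 ratio of coverage between pairs of the 6 genes within each sample, by group, with the mean of the 2 samples as a line; each panel has its own axis. Cd80 to Cd86 and Cd274 to Cd86 were higher in each cKO pool than in each WT pool at both times.

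Other ligands for T cell receptors were counted from lists. Of 8 further immunoglobulin-family and lectin ligands measured, 5 were called higher and 2 lower with stimulation in WT, and 5 higher and 3 lower in cKO, against 11.7% and 54.7% of all genes in WT and 13.2% and 50.4% in cKO. Icam1, the adhesion ligand of LFA-1, rose by 4.75 (log2) in WT and 5.25 in cKO, and Pvr, a ligand of DNAM-1 and TIGIT, by 3.66 and 3.14. Vsir, the gene of the checkpoint protein VISTA, fell by 3.22 and 3.39, and Cd276 (B7-H3) fell by 3.29 and 2.63, beyond the fall of the median gene. The median of the 8 was 1.14 with stimulation in WT and 0.12 between genotypes at 4 h, beside -1.24 and 0.31 over all genes. By genotype 1 of the 8 was called at each time, against 20.8% of all genes higher and 4.17% lower at 4 h and 8.99% and 5.61% at 0 h, which over both directions is no more than the background. Cd48, the ligand of CD244 and CD2, was lower in cKO at 4 h, with means of 7070 in WT and 3629 in cKO (log2 fold change -0.97, adjusted p = 0.0604), and Cd276 was lower at 0 h, with means of 191.4 and 95.1 (log2 fold change -0.997, adjusted p = 0.162). The call of Cd276 was lost without WT replicate 2 (-0.79), cKO replicate 3 (-1.11) or cKO replicate 4 (-0.88). Vtcn1 and Btn2a2 were not analysed here.

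The TNF-family costimulatory ligands rose with stimulation in 6 of 7 cases in each genotype, against 11.7% of all genes in WT and 13.2% in cKO, with a median of 5.10 (log2) in WT, and their median genotype difference at 4 h was -0.14. Tnfsf4 (OX40 ligand) was listed at 0 in all samples at 0 h, and stood at means of 351 in WT and 470.9 in cKO at 4 h. Tnfsf9 (4-1BB ligand) rose by 8.21 in WT and 7.97 in cKO, and Tnfsf15 by 10.01 and 9.37 (log2). Tnfsf15 was the 1 of them called by genotype, higher in cKO at both times, against 8.99% of all genes higher at 0 h and 20.8% at 4 h: its means were 3.25 and 10.5 at 0 h (log2 fold change 1.76, adjusted p = 0.186) and 3259 and 7018 at 4 h (log2 fold change 1.12, adjusted p = 0.0631). Its call at 0 h was lost without cKO replicate 3 (1.82) or cKO replicate 4 (1.70).

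Among the genes that carry the CD40 signal, 8 of 10 were called higher and 1, Map3k14, lower with stimulation in each genotype, against 11.7% and 54.7% of all genes in WT. The change of Map3k14, -1.25 in WT and -1.29 in cKO, was near that of the median gene, -1.24 and -1.03. Traf1 rose by 8.19 in WT and 8.51 in cKO, and Nfkb2 by 3.07 and 3.58. Traf3, which restrains the noncanonical NF-κB pathway, was called higher in cKO at both times, with means of 250.3 and 664.7 at 0 h (log2 fold change 1.42, adjusted p = 0.111) and 565 and 1009 at 4 h (log2 fold change 0.84, adjusted p = 0.0561). Traf6 was called higher at 4 h, with means of 283 and 445 (log2 fold change 0.65, adjusted p = 0.0678), and at 0 h, with means of 324.2 and 482.3, its log2 fold change of 0.57 missed the fold threshold. The interaction of Traf6 was 0.08 (adjusted p = 0.787). Its call at 4 h and that of Traf3 were lost after median-centring (0.32 and 0.50). The call of Traf6 was also lost without cKO replicate 4 (0.60). The median log2 difference of the 10 genes between genotypes was 0.32 at 4 h, beside 0.31 over all genes, and with stimulation in WT it was 1.23, beside -1.24.

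Of 6 genes that control how long these proteins stay at the cell surface, 1 was called higher and 3 lower with stimulation in WT, and 1 higher and 2 lower in cKO. Over all genes 11.7% were called higher and 54.7% lower in WT, and 13.2% and 50.4% in cKO, so these counts are near the background. After median-centring the change of March1 in WT turned from -0.85 to 0.62 and was called higher, and those of Cmtm4 and Stub1 in cKO, -1.11 and -1.14 before, were 0.09 and 0.06 and were not called. The median of the 6 was -0.69 with stimulation in WT and 0.13 between genotypes at 4 h, beside -1.24 and 0.31 over all genes. By genotype 1 of the 6 was called higher at 4 h, against 20.8% of all genes. At 0 h 1 was called higher and 1 lower, against 8.99% and 5.61%. Cmtm4, whose product with CMTM6 protects PD-L1 from degradation, was called higher in cKO at both times. Its means were 352.8 in WT and 770.1 in cKO at 0 h (log2 fold change 1.13, adjusted p = 0.0747) and 66.1 and 358.7 at 4 h (log2 fold change 2.44, adjusted p = 0.05). March1, whose product removes CD86 from the surface and is written here as the files spell it, was lower in cKO at 0 h (log2 fold change -0.65, adjusted p = 0.162) and not called at 4 h, and the call at 0 h was lost without WT replicate 2 (-0.52), cKO replicate 3 (-0.67) or cKO replicate 4 (-0.62). Cd83, which opposes that removal, rose by 3.28 in WT and 3.24 in cKO with stimulation. Cmtm6, Stub1 and Cops5 were not called by genotype at either time.

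Upstream of the 6 genes, 7 of 12 IFNγ and LPS signalling genes were called higher and 3 lower with stimulation in each genotype, against 11.7% and 54.7% of all genes in WT and 13.2% and 50.4% in cKO, with a median of 1.54 in WT, and their median genotype difference at 4 h was 0.16. Irf1, a transcription factor of IFNγ-induced genes, rose by 4.18 in WT and 4.81 in cKO. By genotype, 0 of the 12 were called at 4 h, against 20.8% of all genes higher and 4.17% lower, with Irf1 and Tlr4 at an unadjusted p under 0.05 in limma, and Ifngr1, a chain of the IFNγ receptor, was the 1 called at 0 h, against 8.99% and 5.61%, with means of 5176 in WT and 3279 in cKO (log2 fold change -0.66, adjusted p = 0.122). Tlr4, the LPS receptor, passed the interaction test (-1.04, adjusted p = 0.0482), with means of 766.3 and 1109 at 0 h and 145.2 and 102.3 at 4 h in WT and cKO. The call was lost when any 1 of the 8 samples was left out, with differences from -1.12 to -0.95 and adjusted p from 0.0618 to 0.149, without the filter (adjusted p = 0.0551) and with the replicate block (0.16).

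Among the receptors and partners of these ligands, most of them known as T cell genes, 5 were measured, and Cd40lg was not analysed here. Ctla4 was listed at 0 in all 8 samples, and the mean of Icos lay between 0.557 and 4.60 in the 4 groups. Pdcd1 was listed at 0 in every sample at 0 h and had means of 4.10 in WT and 2.38 in cKO at 4 h. Cd28 was present at 0 h, with means of 750.6 in WT and 1092 in cKO, and at 5.68 and 7.45 at 4 h. Rgmb, a partner of PD-L2, was called higher in stimulated cKO cells (log2 fold change 0.61, adjusted p = 0.0756), a call lost without WT replicate 2 (0.58) or cKO replicate 4 (0.55) and after median-centring (0.28). Summed coverage of 7 T cell markers ranged from 38.5 to 224.9 and that of 6 B cell markers from 1.70 to 143.3, both lower at 4 h than at 0 h. In WT at 0 h 2 of the 7 and 3 of the 6 were listed at 0 in both samples. The sum over the B cell markers at 0 h was 125.8 to 143.3 in WT against 67.9 to 73.5 in cKO, and Cd79b was called lower in cKO (log2 fold change -0.96), a call lost with all 8 samples in 1 fit. The sum over the T cell markers at 4 h was 38.5 to 66.1 in WT against 79.1 to 104.5 in cKO. Most of that difference was in Lck, with means of 30.8 and 69.9 (not called), while Cd4 had means of 19.3 and 17.9 and the other 5 were each below 2. Lck was called lower in cKO at 0 h (-2.75), a call lost without either WT sample (-2.96 and -2.53). The part of these cells in the values of the 6 genes was not tested. The sum over 8 dendritic cell markers ranged from 3680 to 6127 in WT and from 2884 to 3750 in cKO at 0 h. Most of it was Itgax, with means of 4854 and 3277 (not called). At 4 h the sum ranged from 3465 to 5188 in WT and from 3251 to 3602 in cKO. Most of it was then Itgax (means 2499 and 2147) and Clec9a (means 1542 and 1027), neither of them called. Clec9a had means of 4.09 in WT and 5.31 in cKO at 0 h, and Xcr1 had means of 0.000122 and 6.1e-05. Within this list Batf3 was called lower in cKO at 0 h (log2 fold change -1.20) and 4 h (-0.98), and at 4 h Xcr1 was called lower (-3.17) and Zbtb46 higher (1.53). The call of Batf3 at 0 h was lost without either WT sample (-1.13 and -1.26). That of Xcr1 was lost without WT replicate 2, cKO replicate 3 or cKO replicate 4 (-3.65 to -2.38), and that of Zbtb46 without WT replicate 1 (1.48). With values not logged, the calls of Xcr1 (-3.29) and Zbtb46 (1.55) were lost as well. Dendritic cells express the same ligands, and the part of these cells in the values of Cd80, Cd86 and Icosl was not tested. Summed coverage of 6 neutrophil markers was 22070 and 23910 in WT against 25500 and 34010 in cKO at 0 h. At 4 h it was 17140 and 21090 in WT against 21200 and 24180 in cKO, and the groups nearly touched. These sums were not scaled to total coverage, which was also higher in each cKO pool. Of the 6, 0 were called by genotype at either time. At 4 h 4 of the 6 were higher in cKO, while Mpo (-0.37) and Elane (-0.15) were lower. Ly6g was listed at 0 in both cKO samples at 0 h. The part of neutrophils in the values was not tested either.

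By the shape of their profile over the 8 samples, the genes nearest to each of the 6 were found by the root mean square difference of log2 values after each gene was centred on its own mean, over 16283 other genes. For Cd86 the nearest were H2-Aa (0.148), Gpr84 (0.176) and H2-Eb1 (0.178), of which H2-Aa and H2-Eb1 encode MHC class II chains. For Cd40 they were Gbp2 (0.181), Pax4 (0.183) and Il1f6 (0.213). Those near Cd274 included Procr (0.229) and Pakap (0.260). For Icosl they were Lztfl1 (0.120), Cysltr2 (0.196) and Setdb2 (0.212), and for Cd80 Arl5b (0.190), Gpd2 (0.197) and Slc4a11 (0.198). Among the 6 themselves the closest pair was Cd274 and Pdcd1lg2 (0.609), then Cd80 and Icosl (0.741), and the farthest was Cd40 and Cd80 (3.39). These distances are a description over 8 samples of 4 groups, and they carry no p.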

How the data were processed

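RNA-seq values of 8 BMDM samples were used. Per the labels and methods, the authors aligned paired-end reads with HISAT2 2.2.1 to mm10/GRCm38 and quantified RefSeq genes with StringTie 2.1.7. The deposited values are an unscaled coverage signal per gene and sample, 1 table per time. The tables do not name this unit, which was inferred from the values: of the values under 1 of genes with 1 transcript, 33.5% (4 h) and 29.1% (0 h) gave whole bases when multiplied by transcript length, to within 0.02, against 4% from the tolerance alone. Further deposited columns give the authors' own comparisons (a log2 fold change and a p-value per gene) and were not used, and 0 columns of per-sample values were left out. The labels name the stimulation for every sample, and their titles were the ground for treating 0 h samples as unstimulated. The design had allowed for counts, and coverage is not a count, so no count test was run.

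Genotypes were compared at each time over 4 samples, and stimulation and the interaction over all 8, by fitting log2(coverage + 0.1) in limma (version 3.58.1, R 4.3.3) for genes with a mean of at least 0.5. Genotype calls needed a fold above 1.5 and p under 0.05, stimulation calls the same fold with Benjamini-Hochberg adjusted p under 0.05, and interaction calls the adjusted p alone. The 4 h genotype fit and the interaction fit were tested on simulated data. Read numbers per gene are not in the tables, so no counting interval was computed. The members and gene lists were chosen with earlier results of these data known. From each list, up to 4 genes per comparison were named, those called with the largest changes, and 5 nearest profiles were found for each member; results of 2 genes so found are not reported here. Transcripts came from GENCODE M21, taking those matched to a RefSeq mRNA first and then the longest coding sequence, and gene positions from RefSeq. Alternatives covered the pseudocount, filter, scaling, variance estimate, samples in the fit, leaving out each sample and a replicate block. The cell type markers named by genotype were added after seeing the data, as those called in the marker lists.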

Additional observations from a re-analysis of the deposited data

Results flagged for a closer look

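Tlr4, a gene of the upstream signalling list and not one of the 6, was the one among the 6 genes and the listed genes whose genotype difference changed between the times past the test over all 8 samples, by -1.04 on the log2 scale (limma, adjusted p = 0.0482). The genotype difference was 0.53 at 0 h and -0.50 at 4 h, and neither was called. Leaving out any 1 of the 8 samples lost the call, with adjusted p from 0.0618 to 0.149, and so did dropping the filter (0.0551) and fitting a replicate block (0.16).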

How the results depend on the processing

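All 12 stimulation results of the 6 genes, and their counts of 6 higher and 0 lower in each genotype, kept direction and call under all 16 alternatives each. Of 156 values for the genotype effects, 133 kept both. At 4 h Cd40 turned negative when median-centred (-0.34), scaled to the same total (-0.21), quantile normalized (-0.21) or not logged (-0.0011), and leaving out 1 sample gave -0.065 to 0.066. Cd80 at 4 h turned to -0.17, -0.044 and -0.092 under those 3 scalings. Cd86 at 4 h ranged from -0.61 to -0.56 with 1 sample left out, and Pdcd1lg2 from 0.11 to 1.23. The number of members called at 4 h then ranged from 1 to 2 higher and from 1 to 2 lower. At 0 h the call of Pdcd1lg2 was lost when quantile normalized (1.47), with an intensity trend (1.73) and unlogged (1.77), and leaving out 1 sample gave 1.28 to 2.17. Icosl at 0 h was called when median-centred (-0.63), scaled to the same total (-0.66) or quantile normalized (-0.64), which made 1 member lower under each of these, and leaving out 1 sample gave -0.67 to -0.40 and 0 to 1 lower. For the difference between the times, Cd40 turned to -0.16 and Cd274 to -0.16 when median-centred, and to -0.039 and -0.30 when quantile normalized, and Cd274 ran from -0.045 to 0.25 with 1 sample left out. Cd80 passed when median-centred (-1.08), quantile normalized (-1.08) or fitted with an intensity trend (-0.81), making 1 member lower. The ratio of Cd274 to Pdcd1lg2 at 0 h turned to 0.21 with a pseudocount of 1, and ran from -0.96 to 0.00096 with 1 sample left out. The cause was not tested for any of these. Of 902 values for the other named genes, 856 kept direction and call, and the stimulation effects of March1 (0.62) and Rgmb (0.50) in WT and of Cmtm4 (0.089) and Stub1 (0.065) in cKO turned positive when median-centred, as did Rgmb (0.28) when quantile normalized. All 8 samples in 1 fit, the other pseudocount and the filters changed no call of the 6 genes by these thresholds, but the pseudocount of 1 moved Pdcd1lg2 from 1.73 to 1.04 at 0 h and from -1.06 to -0.38 in the difference between the times.

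The labels repeat replicate numbers 1 and 2 (WT) and 3 and 4 (cKO) at both times. Deviations of same-numbered samples from their group means correlated at 0.0204 in WT and 0.0237 in cKO, and the numbers were not taken as pairs. This correlation runs over all genes, weakly covered ones included, so it cannot decide whether the same pools were used at both times. In this balanced design the replicate block cannot move an estimate, only its p. With the replicate block, the adjusted p of the difference of Cd80 between the times (-0.81) was 0.216, against 0.0746 without it, and over all genes 15 were higher and 16 lower by the interaction, against 372 and 124 without it. For the genotype comparisons no block could be fitted, because WT and cKO share no number. edgeR-type count models were not run, since the values are coverage.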
